A study of Mus musculus with 24 samples.

Results

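Among 18255 genes measured in the mouse hippocampus, 606 set the 4 rapamycin-treated mice apart from the other 20 mice of the series. Genes were chosen by their measured level: in all 4 treated mice it lay below the lowest value of the other 20 (351 genes, 1.92% of those measured) or above their highest value (255 genes, 1.4%). Levels are CPM, each gene's reads scaled to a common library size, with library sizes adjusted by the trimmed mean of M values (TMM), and a gene counted as measured with a mean of at least 1 CPM over the 24 mice. Because these values chose the genes, their difference between treated and other mice is a description, with no test, and nothing is read from the shares.

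The study followed hippocampal RNA after deletion of Tsc1 in adult mice. All animals were 16- to 22-week-old males and females with floxed Tsc1 alleles (Tsc1 fl/fl), and all received tamoxifen. Cre recombinase fused to a modified estrogen receptor was driven by the Camk2a promoter, so that deletion is limited to CAMK2A-expressing neurons and every other cell type keeps Tsc1. Total RNA without rRNA was sequenced from 1 hippocampal sample per mouse. The 6 groups of 4 mice were Cre-negative controls taken on day 8 after the start of tamoxifen, Cre-positive mice taken on day 4, 6, 8 or 13, and Cre-positive mice given rapamycin at 10 mg/kg daily from day 4 and taken on day 13 (RAPA). No Cre-negative mouse received rapamycin, so an effect of the drug by itself and its effect on Tsc1-deleted mice cannot be told apart. Total counts were 28208561 to 54924199 per mouse in RAPA, 38423852 to 126435936 on day 13 and 50460565 to 62429111 in the remaining groups. Controls and day 8 mice share their series of animal numbers, while the animal numbers of each other group, RAPA included, come from series that no other group has. For RAPA, group and cohort therefore cannot be told apart.

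TSC1 is part of a complex that restrains the kinase complex mTORC1, which promotes ribosome production, protein synthesis and lipid synthesis and holds back autophagy. Rapamycin enters cells, binds the small immunophilin encoded by Fkbp1a, and the pair inhibits mTORC1. Through the transcription factors SREBP and ATF4, mTORC1 is known to raise the genes of sterol synthesis and of amino acid supply.

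The deleted gene and the drug's own pathway were looked at first. Tsc1 was 106 ± 3.25 CPM in controls (SD, n = 4), 62.7 ± 5.93 on day 13 and 67.4 ± 1.27 in RAPA, so the RAPA mice carried the reduced level of Cre-positive mice. Esr1, whose receptor domain is part of the Cre fusion, was 3.16 ± 0.641 CPM in controls and 29.8 ± 1.93 in RAPA. Both match the labels. Neither Mtor (212 ± 13.3 CPM in RAPA, 207 ± 5.80 in controls) nor Rptor, which encodes the mTORC1 subunit Raptor (97.4 ± 6.25 and 98.7 ± 6.69), stood apart. Eif4ebp1, which encodes a translation repressor that mTORC1 inactivates, was 0.937, 0.992, 1.12 and 1.503 CPM in the RAPA mice, 10.4, 22.3, 4.62 and 7.24 on day 13 and 1.13, 0.889, 1.23 and 1.161 in controls. RAPA and control mice overlapped for this gene, and it was not chosen.

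Of 40 measured genes of the mTORC1 pathway, 2 were lower (Nprl2 and Rragd) and 1 was higher (Rps6kb1). Rps6kb1 encodes the S6 kinase that mTORC1 activates. It was at 90.2, 87.0, 89.6 and 90.4 CPM in RAPA and 74.0 to 85.2 (median 79.6) in the other 20 mice, an RAPA mean 113% of theirs. Rragd, a Rag GTPase that brings mTORC1 to the lysosome, was at 79.2, 89.8, 87.3 and 88.7 CPM in RAPA and 98.3 to 227 (median 134) in the others. Nprl2, part of the complex that switches off the Rag GTPases, was at 18.2, 18.9, 17.5 and 16.5 CPM against 19.6 to 24.3 (median 21.0). The margins of Rps6kb1 and Nprl2 were narrow, and neither was retained after each mouse's trend on GC content and transcript length was removed, whereas Rragd was. With DESeq2 size factors 2 of the 40 were lower and none higher, with thinned counts 1 and none, and with total counts alone 1 and 2. Over all 18255 genes these settings gave, in that order, 326, 256 and 219 lower genes and 261, 201 and 384 higher genes. These numbers are the background for the lists below under the same settings.

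Fkbp1a itself was among the lower genes. Its level was 138, 136, 114 and 135 CPM in the 4 RAPA mice and 139.7 to 229.8 (median 161) in the others, and the nearest other mouse was a control. Fkbp4, another FK506-binding protein and a cochaperone of steroid receptors, was at 61.0, 60.2, 56.0 and 59.5 CPM against 62.5 to 99.8 (median 74.3). These were 2 of 13 measured FK506-binding proteins (15.4%, against 1.92% of all genes), with none higher. With DESeq2 size factors or total counts alone as the scaling 1 of the 13 was lower, and neither was retained after the GC content and length trend was removed.

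**Figure D1:**
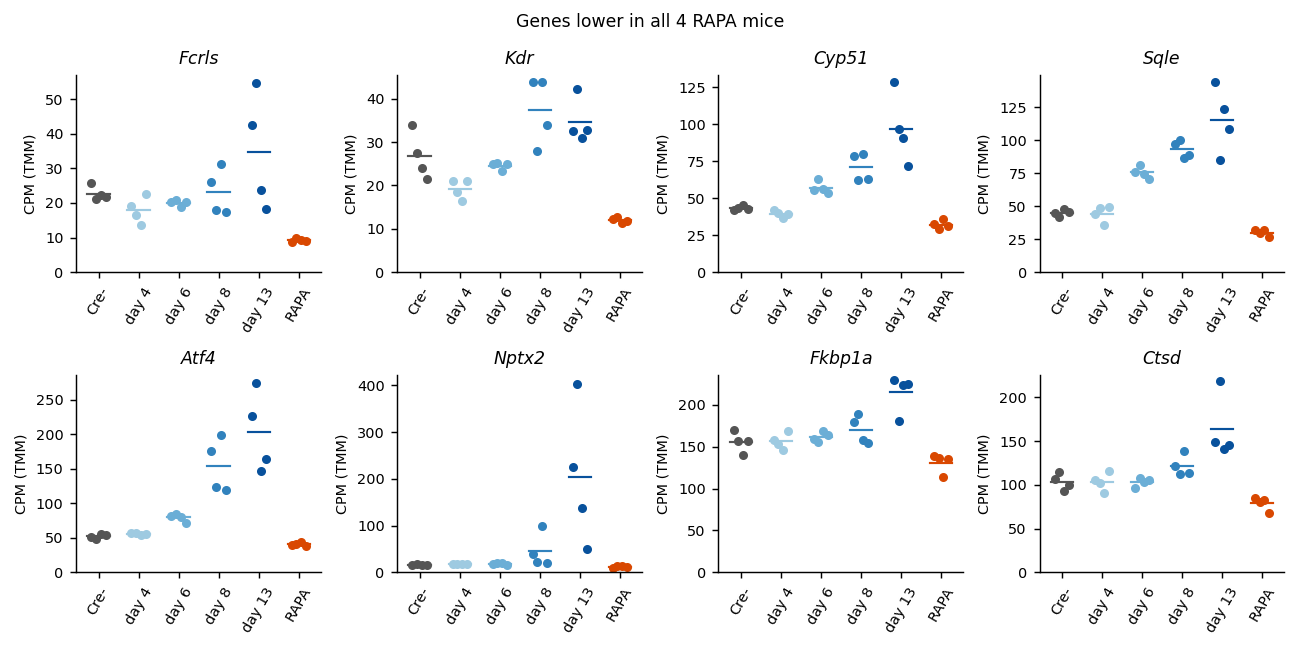
TMM CPM of 8 lower genes in each of the 24 mice, with 4 points per group and a line at the group mean. In each panel the 4 RAPA points lie below all others; Sqle was at 32.2, 29.3, 32.1 and 26.4 CPM in RAPA and at least 35.4 in every other mouse.

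Sterol synthesis was the list with the largest share of lower genes among the 34 lists examined. Of 28 measured genes, 8 were lower (28.6%) and none higher, and the RAPA mean was below the mean of the other 20 mice for 27. The median log2 ratio of RAPA to the other mice was -0.76, against -0.02 over all genes, and -0.29 against controls alone. Sqle, which encodes squalene epoxidase, had 32.2, 29.3, 32.1 and 26.4 CPM in RAPA and 35.4 to 144 (median 75.4) in the others. The nearest other value came from a day 4 mouse, and the control mean (45 ± 2.31 CPM, SD, n = 4) lay between RAPA and day 13 (115 ± 24.9 CPM).

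Other lower sterol genes followed the same order of groups. Mvk and Mvd encode enzymes of the mevalonate steps, and Mvd had 6.21, 5.99, 6.997 and 5.02 CPM in RAPA against 7.62 to 27.6 (median 15.4). Cyp51 and Nsdhl remove methyl groups from the sterol ring, and Cyp51 had 32.6, 29.3, 35.5 and 30.9 CPM against 36.7 to 128 (median 55.7). Dhcr7, which makes the last step to cholesterol, had 12.1, 13.1, 10.5 and 12.3 CPM against 15.6 to 28.8 (median 21.1). Insig1, which encodes a protein that holds SREBP in the endoplasmic reticulum, had 42.4, 37.9, 44.6 and 35.3 CPM against 46.3 to 136 (median 69.2). In these 4 genes, too, the RAPA mean was below the control mean, at 67.7%, 74.2%, 71.6% and 77.0% of it. The summed level of the 28 genes was 970.1, 950.2, 945 and 879 CPM in the RAPA mice and 1035 to 2600 (median 1536) in the others. These sums did not overlap, as for 4 of the 34 lists. The sum includes the 8 chosen genes, so its separation is partly set by the choice. With total counts alone as the scaling 5 of the 28 were lower, and with thinned counts 7. After removal of the GC content and length trend, 6 of the 8 were retained, among them Cyp51, Dhcr7, Insig1, Nsdhl and Sqle.

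For the 6 lower sterol genes that the promoter table holds, the bases before their starts are shown, from RefSeq on GRCm38.p6. Their shared direction was set by the choice. Dhcr7 has 3 starts in that table, of which the one farthest upstream is shown, and the other 5 genes have 1 each. Each stretch is the 250 bases before the start, read on the strand of the gene, with CCAAT and GGGCGG on either strand in capitals. Mvk lies at chr5:114444019-114444268 on the plus strand, Mvd at chr8:122443423-122443672 on the minus strand, Insig1 at chr5:28071162-28071411 on the plus strand, Cyp51 at chr5:4104698-4104947 on the minus strand, Nsdhl at chrX:72918271-72918520 on the plus strand and Dhcr7 at chr7:143822917-143823166 on the plus strand.
Mvk: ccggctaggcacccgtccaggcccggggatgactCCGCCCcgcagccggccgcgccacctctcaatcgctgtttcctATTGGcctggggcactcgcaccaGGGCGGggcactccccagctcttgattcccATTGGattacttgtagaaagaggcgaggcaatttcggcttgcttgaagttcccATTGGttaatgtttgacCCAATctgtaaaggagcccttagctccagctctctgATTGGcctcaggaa
Mvd: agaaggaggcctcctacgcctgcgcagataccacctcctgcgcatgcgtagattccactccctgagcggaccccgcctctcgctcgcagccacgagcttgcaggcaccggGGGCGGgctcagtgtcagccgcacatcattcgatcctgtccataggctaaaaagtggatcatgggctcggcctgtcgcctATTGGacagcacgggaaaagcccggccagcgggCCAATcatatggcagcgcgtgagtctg
Insig1: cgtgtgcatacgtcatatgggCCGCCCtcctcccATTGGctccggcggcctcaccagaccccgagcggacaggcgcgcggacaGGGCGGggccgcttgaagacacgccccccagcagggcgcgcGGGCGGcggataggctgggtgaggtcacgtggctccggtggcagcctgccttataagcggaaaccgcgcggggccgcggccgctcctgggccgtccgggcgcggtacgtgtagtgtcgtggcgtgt
Cyp51: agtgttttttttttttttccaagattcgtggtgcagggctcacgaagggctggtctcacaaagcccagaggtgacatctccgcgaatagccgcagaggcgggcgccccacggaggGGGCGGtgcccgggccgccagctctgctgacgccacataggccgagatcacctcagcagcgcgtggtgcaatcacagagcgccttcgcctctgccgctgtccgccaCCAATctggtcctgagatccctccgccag
Nsdhl: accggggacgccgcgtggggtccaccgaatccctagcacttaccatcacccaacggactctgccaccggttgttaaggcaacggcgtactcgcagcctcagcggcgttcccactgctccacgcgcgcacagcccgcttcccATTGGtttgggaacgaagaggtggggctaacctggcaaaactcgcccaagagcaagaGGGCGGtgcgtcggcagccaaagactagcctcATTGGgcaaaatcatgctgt
Dhcr7: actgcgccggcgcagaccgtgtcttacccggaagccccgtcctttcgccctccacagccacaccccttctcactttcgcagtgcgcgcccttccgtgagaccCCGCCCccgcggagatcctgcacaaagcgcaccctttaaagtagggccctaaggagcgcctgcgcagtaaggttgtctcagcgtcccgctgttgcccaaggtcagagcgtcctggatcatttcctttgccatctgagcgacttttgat
The stretch of Mvk holds 5 matches to CCAAT and those of Mvd and Nsdhl 2 each, while Insig1 and Cyp51 hold 1 each and Dhcr7 none. Over all starts, CCAAT was found in 6 of 8 promoters of lower sterol genes (75%), in 67.9% of 28 promoters of the sterol list, in 39.0% of 367 promoters of lower genes, in 34.3% of 207 of higher genes, in 34.5% of 15034 of measured genes and in 33.9% of all 32841 promoters. GGGCGG was found in 87.5%, 78.6%, 59.95%, 51.2%, 54.2% and 32.75%, in the same order. The median GC content of these promoters was 62.2%, 62.6%, 60.4%, 58.8%, 59.2% and 52.4%. The E box CACGTG was found in 2 of the 8 (25%) and, in the same order, in 17.9%, 9.26%, 8.21%, 7.84% and 6.02%. TGATGNAAT, a form of the amino acid response element, was in none of the first 28, in 0.273% of lower, 0.966% of higher and 0.446% of measured genes and in 0.816% of all promoters. The letters TCACNCCAC, a form of the sterol element bound by SREBP, were in 0 of the 8, in 3.57% of promoters of the sterol list, in 2.18% of lower genes, in 2.415% of higher genes, in 1.02% of measured genes and in 1.05% of all promoters, with N for any base and both strands searched. A match is a description of the letters and not a bound site.

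Fatty acid synthesis held 2 lower genes of 22 measured. Fasn, fatty acid synthase, had 403, 410.5, 375 and 355 CPM in RAPA and 426 to 634 (median 511) in the others. Elovl6, an elongase of fatty acids, had 61.1, 58.0, 53.1 and 61.8 CPM against 62.2 to 81.5 (median 70.1). Elovl6 was retained after the GC content and length trend was removed and Fasn was not. Total counts alone and thinned counts each left 1 lower gene of the 22.

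Among ATF4 and its targets in amino acid supply, 4 of 34 measured genes were lower (11.8%) and none higher. The median log2 ratio was the lowest of the lists named here, -1.09 to the other 20 mice and -1.68 to day 13, but -0.05 to controls. Atf4 itself, the transcription factor of the amino acid response, had 39.5, 40.6, 43.9 and 38.5 CPM in RAPA and 48.0 to 274 (median 81.0) in the others. Group means were 52.4 ± 3.33 CPM in controls, 154 ± 38.9 on day 8 and 203 ± 58.7 on day 13, so RAPA lay below a level from which the untreated Cre-positive mice had departed. Slc7a1, a carrier of cationic amino acids, had 35.8, 34.2, 36.0 and 30.0 CPM against 37.9 to 170.1 (median 59.2). Slc1a4, a carrier of neutral amino acids, had 41.0, 37.2, 34.8 and 29.5 CPM against 41.1 to 158 (median 64.0), with the highest RAPA value next to the lowest other value. Vldlr, a lipoprotein and reelin receptor that the list holds as an ATF4 target, had 102, 100.2, 105 and 98.7 CPM against 125 to 257 (median 139). Slc1a4 was not retained after the trend was removed and the other 3 were. With DESeq2 size factors or total counts alone 3 of the 34 were lower. The listed genes summed to 1152, 1098, 1197 and 1079 CPM in RAPA and 1161 to 3510 (median 1412) in the others, which overlapped.

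Of 31 measured genes of the unfolded protein response and chaperones, 3 were lower. Calr, the calcium-binding chaperone calreticulin, had 158, 165, 155 and 167 CPM against 173 to 287 (median 221). Sdf2l1, a chaperone partner of the endoplasmic reticulum, had 4.58, 3.86, 3.21 and 3.35 CPM against 4.80 to 12.1 (median 6.80), and Edem1, which directs misfolded glycoproteins to degradation, had 26.3, 29.7, 30.2 and 30.5 CPM against 31.0 to 41.8 (median 34.6). All 3 were retained after the trend was removed. With counts thinned to the smallest library none of the 31 was lower, and with total counts alone 2 were. Hmox1, heme oxygenase, which is on none of these lists, had 2.36, 2.60, 2.17 and 2.07 CPM in RAPA and 2.66 to 37.1 (median 5.25) in the others.

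Lysosomal genes gave 6 lower of 37 measured (16.2%) and none higher. Among them, Ctsd and Ctss encode cathepsins, Npc2 a cholesterol carrier, Lamp1 a membrane glycoprotein and Atp6v0b a subunit of the proton pump. Ctsd had 85.0, 80.8, 83.2 and 67.3 CPM in RAPA and 90.4 to 218 (median 111) in the others. Lamp1 had 130.4, 127, 131 and 127 CPM against 137 to 226 (median 152), and Npc2 had 27.3, 25.6, 25.9 and 25.7 against 29.6 to 51.4 (median 35.5). The summed level of the list was 4234, 4288, 4160 and 3865 CPM in RAPA and 4304 to 7060 (median 4930) in the others, a narrow separation. The sum includes the 6 chosen genes, so this separation is partly set by the choice. Ctss and Npc2 were retained after the trend was removed, whereas Atp6v0b, Ctsd and Lamp1 were not. With thinned counts 5 of the 37 were lower.

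Ribosome biogenesis gave 4 lower genes of 35 (11.4%): Gnl3, Nop2, Ppan and Rrp1, which act in the nucleolus. Nop2, an rRNA methyltransferase, had 20.3, 18.03, 18.7 and 17.96 CPM in RAPA and 21.0 to 42.2 (median 24.6) in the others, and Rrp1 had 157, 157, 151 and 148 against 163 to 262 (median 174). The RAPA mean was below that of the other mice for 34 of the 35 genes. Against controls alone the median log2 ratio was -0.03, so the larger part of the distance lay to the later untreated mice, as the list's median of -0.45 to day 13 shows. Gnl3 was retained after the trend was removed, and Nop2, Ppan and Rrp1 were not. The summed level was 1475, 1525, 1503 and 1482 CPM in RAPA and 1472 to 2322 (median 1651) in the others, which overlapped. Gnl3 and Ppan share their span with other annotated genes on the same strand, Snord19 and Snord69 among them for Gnl3, so their counts are uncertain.

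Genes that respond to neuronal activity were highest in 3 of the 4 untreated day 13 mice. The immediate early gene list summed to 2830, 2556, 3320 and 837 CPM on day 13, and day 13 D had the lowest sum of the other 20 mice. RAPA sums were 880.5, 909, 782 and 897 CPM. Nptx2, a secreted pentraxin of excitatory synapses, had 10.2, 13.8, 13.2 and 10.5 CPM in RAPA and 15.7 to 403 (median 19.3) in the others, with 16.8 ± 1.41 CPM in controls and 204 ± 151 on day 13. Its RAPA mean was 19.7% of the mean of the other 20 mice and 71.1% of the control mean. Bdnf, a growth factor of neurons, had 28.6, 35.8, 28.2 and 34.9 CPM against 36.1 to 222 (median 46.2). These were 2 of 29 measured immediate early genes, a list whose median log2 ratio was -0.64 to the other mice and -0.06 to controls. Both were retained after the trend was removed, when Klf2 of this list was higher. Rgs4, a regulator of G protein signalling, had 89.4, 83.4, 91.0 and 89.4 CPM against 94.4 to 615 (median 130).

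Microglial markers gave 4 lower genes of 23 measured (17.4%), with none higher. Fcrls, a receptor-like gene of microglia, had the widest gap of the named lower genes. It was at 8.67, 9.92, 9.32 and 9.08 CPM in RAPA and 13.5 to 54.9 (median 21.0) in the others. Tyrobp, an adaptor of microglial receptors, was at 4.82, 4.31, 4.95 and 4.83 CPM against 5.59 to 16.6 (median 6.94), and Cx3cr1, the fractalkine receptor, at 34.3, 36.8, 29.5 and 32.9 against 37.1 to 53.7 (median 41.2). None of these genes overlapped between RAPA and the other mice, as the choice requires. Irf8, a transcription factor of microglia and macrophages that is not on the list, was at 3.19, 3.28, 2.65 and 2.64 CPM against 3.92 to 8.32 (median 4.98). The RAPA mean was below that of the other mice for 22 of the 23 markers. Fcrls and Tyrobp were retained after the trend was removed, and Cx3cr1 was not. Total counts alone and thinned counts each left 3 lower markers. The summed level of all 28 listed markers, 1026, 1006, 951 and 909.7 CPM in RAPA and 777 to 1193 (median 1030) in the others, overlapped. Its most abundant gene was Apoe, which astrocytes also express, at 686, 658, 640.5 and 586 CPM in RAPA and 250 to 735 (median 599.5) in the others, and no marker was at 0. Without Apoe, a sum chosen after seeing the data, the level was 339.7, 348, 310.1 and 324 CPM in RAPA and 352 to 683 (median 430.4) in the others and did not overlap. That sum includes the 4 chosen markers, so its separation is partly set by the choice. With the most abundant gene left out of every list, 7 of 34 sums did not overlap, against 4 with all genes. In whole hippocampus, fewer cells of a type and less RNA per cell cannot be told apart.

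Endothelial cells and pericytes gave 4 lower genes of 26 measured (15.4%). Kdr, a receptor of vascular endothelial growth factor, was at 12.2, 12.8, 11.2 and 11.9 CPM in RAPA and 16.4 to 44.0 (median 26.4) in the others, 44.9% of the control mean. Cldn5, a tight junction protein, was at 14.8, 12.7, 9.90 and 11.2 CPM against 16.2 to 28.1 (median 19.4), and Eng, a coreceptor of transforming growth factor beta, at 5.86, 6.35, 5.82 and 7.56 against 8.79 to 14.6 (median 10.8). Pdgfrb, a receptor of pericytes, was at 26.0, 25.8, 23.8 and 25.3 CPM against 27.9 to 37.2 (median 31.7). The 27 listed markers summed to 544, 562, 600.1 and 559 CPM in RAPA and 570.4 to 753 (median 639.8) in the others, which overlapped. Rgs5 was the most abundant, at 79.8, 78.0, 86.9 and 83.8 CPM in RAPA and 65.8 to 123 (median 93.5) in the others, and no marker was at 0. Kdr and Pdgfrb were retained after the trend was removed, and Cldn5 and Eng were not.

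Astrocyte markers gave 1 lower gene of 23 measured, Gfap, a filament protein that astrocytes raise when reactive. It was at 102, 114, 104 and 124 CPM in RAPA and 126 to 1346 (median 181) in the others. Gfap was not retained after the trend was removed, and with total counts alone no astrocyte marker was lower. The 26 listed astrocyte markers summed to 6121, 6149, 6024 and 6076 CPM in RAPA and 5632 to 7132 (median 6314) in the others, with Slc1a2 the most abundant. Markers of oligodendrocyte precursors and new oligodendrocytes gave 2 of 25 (Fyn, a kinase, and Sirt2, a deacetylase), both also expressed elsewhere. Of these Fyn alone was retained after the trend was removed, and total counts alone and thinned counts each left 1 lower. Mature oligodendrocyte markers gave none of 26, but their sum was 3619, 3665, 4161 and 4945 CPM in RAPA and 3955 to 7271 (median 4870) in the others, with Mbp the most abundant.

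No gene of the choroid plexus, meningeal, blood, interneuron, granule and pyramidal neuron or neighbouring region lists was chosen. Choroid plexus markers varied between mice: their sum was 183, 253, 933 and 259.6 CPM in RAPA and 206 to 3041 (median 489.7) in the others, and Ttr was 5.69, 48.4, 462 and 20.7 CPM in RAPA. Meningeal markers summed to 679, 639, 809 and 586 CPM against 580.5 to 1090 (median 769), with Ptgds the most abundant. Blood markers summed to 60.9, 48.1, 46.6 and 51.1 CPM against 42.2 to 85.5 (median 51.9), with Hbb-bs the most abundant. Markers of interneurons summed to 1511, 1496, 1529 and 1359 CPM against 1093 to 1465 (median 1388), those of granule and pyramidal neurons to 5424, 6076, 4730 and 5551 against 4788 to 6503 (median 5996), and those of neighbouring regions to 374, 344, 388 and 437 against 277 to 588 (median 343). Camk2a was the most abundant gene of the granule and pyramidal neuron list and Pde10a of the neighbouring regions, none of these lists had a marker at 0, and the part of these cells in the lower genes was not tested.

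Genes of adult neurogenesis and immature neurons gave 4 lower of 24 measured (16.7%). Nes, an intermediate filament of progenitors that reactive glia and vessels also express, was at 5.00, 6.44, 5.61 and 6.68 CPM in RAPA and 7.25 to 39.9 (median 9.88) in the others. Tubb3, a neuronal tubulin, was at 123, 112, 128 and 94.9 CPM against 132 to 335 (median 177). Sox4, a transcription factor, and Ccnd2, a cyclin of neural progenitors, were at 15.3, 14.1, 13.9 and 14.2 and at 67.7, 69.9, 67.2 and 58.4 CPM, with 16.8 to 27.4 (median 19.9) and 70.8 to 121 (median 97.4) in the others. The 30 listed genes summed to 1101, 1110, 1123 and 1118 CPM in RAPA and 1186 to 1598 (median 1272) in the others, which did not overlap. The sum includes the 4 chosen genes, so this separation is partly set by the choice. Sox4 and Ccnd2 were retained after the trend was removed. Total counts alone and thinned counts each gave 3 lower and 1 higher gene of this list. Top2a, the topoisomerase of dividing cells and 1 of 41 measured cell cycle genes, was at 0.451, 0.793, 0.476 and 0.894 CPM in RAPA and 1.13 to 13.3 (median 3.43) in the others, 14.9% of their mean. Its RAPA values rest on few reads.

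Several lower genes with wide gaps or large ratios are on none of the lists. Flna, an actin crosslinker, was at 128, 124, 141 and 118 CPM in RAPA and 168 to 408 (median 201) in the others. Vwa1, a matrix protein of basement membranes, was at 11.3, 10.9, 12.2 and 11.4 CPM against 14.8 to 27.9 (median 18.7), and Chst3, which sulfates chondroitin, at 2.01, 1.89, 1.45 and 1.91 against 2.48 to 6.57 (median 3.27). Rab33a, a GTPase of vesicle transport, was at 6.73, 7.11, 6.67 and 5.99 CPM against 8.27 to 15.1 (median 10.1). S1pr3, a receptor of sphingosine phosphate, had 4.51, 4.80, 4.37 and 4.88 CPM against 5.58 to 88.4 (median 6.46), and Adamts1, a secreted protease, 16.3, 18.2, 20.6 and 17.8 against 21.1 to 224 (median 33.3). Lrrc42, whose role is less known, was at 8.78, 9.16, 9.29 and 9.59 CPM against 11.3 to 14.5 (median 12.5), with a mean that varied little among the untreated groups. Of the most abundant named lower genes, Map2 was at 1750, 1785, 1785 and 1692 CPM against 1788 to 2400 (median 1891), and Syn2, a synaptic vesicle protein, at 446, 474, 436 and 362 against 478 to 718 (median 585). Ank2, Atp2a2, Napb and Syt11 had RAPA means of 90.7%, 80.9%, 78.7% and 82.2% of the other mice. The remaining lower genes on lists were Gpi1 (glycolysis, 1 of 31), Irgm1 (interferon-stimulated, 1 of 32), Hist1h2bc (histones, 1 of 22), and Pik3r3 beside Pdgfrb (growth factor signalling, 2 of 27). Gpi1 was not retained after the trend was removed, when Igf1r and Insr of the last list were higher. Total counts alone and thinned counts each gave 1 lower and 1 higher gene of that list.

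Over all 351 lower genes, the RAPA mean was 75.02% of the mean of the other 20 mice in the median, and 14.9% to 91.4% at the extremes. Against controls alone the median was 84.2%. With 0.5 CPM added to both means, 87 genes (24.8%) were over 1.5-fold below the mean of the other mice and 23 over 2-fold. The other mouse nearest to RAPA was a control for 155 genes, a day 4 mouse for 111, and a day 13 mouse for 19. Of the 351 genes, 343 were protein coding (97.7%), against 76.2% of all measured genes.

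**Figure D2:**
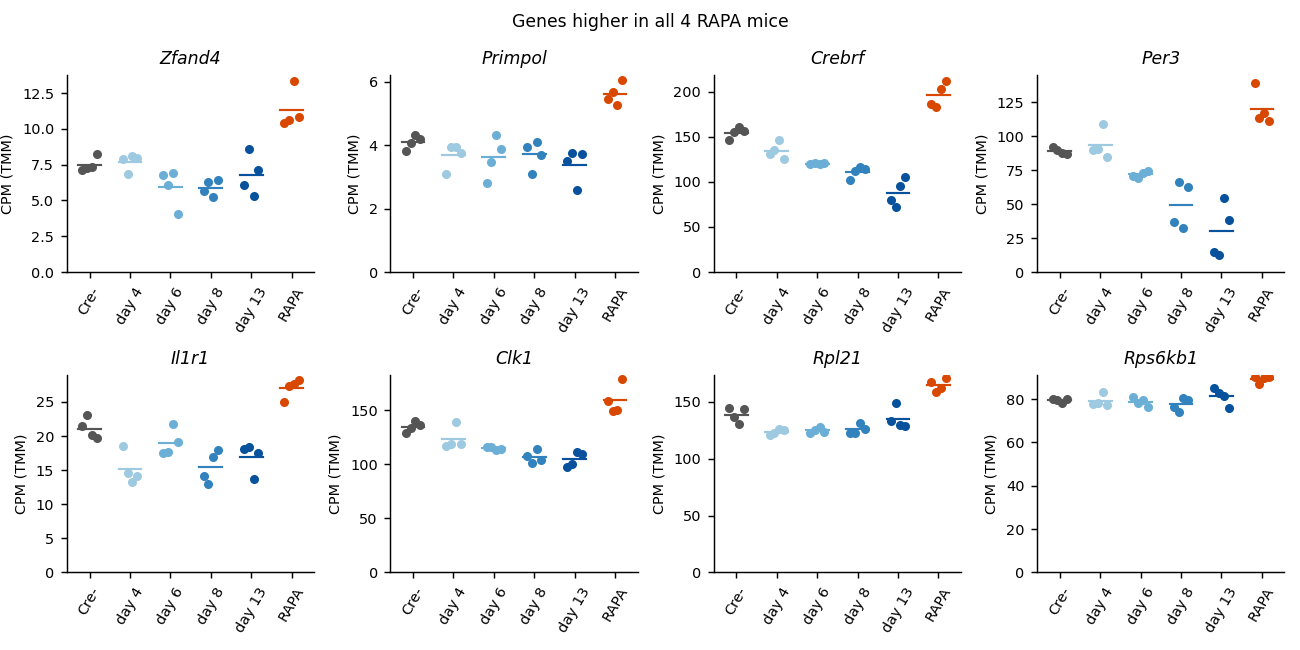
TMM CPM of 8 higher genes in each of the 24 mice, with 4 points per group and a line at the group mean. In each panel the 4 RAPA points lie above all others; Per3 was at 139, 114, 117 and 111 CPM in RAPA and at most 109 in any other mouse.

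The 255 higher genes differed by less. The median RAPA mean was 126.8% of the mean of the other mice and 116.5% of the control mean, with a highest value of 251.0% of the other mice. With 0.5 CPM added to both means, 26 genes (10.2%) were over 1.5-fold above the mean of the other 20 and 0 over 2-fold. Of these genes 179 were protein coding (70.2%) and 42 were of the annotation class TEC, loci without an established transcript type (16.5%). Over all 18255 measured genes 76.2% were protein coding and 8.49% TEC. The nearest other mouse was a control for 140 genes and a day 13 mouse for 19.

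Genes of RNA processing were among the higher genes. Of 35 measured RNA-binding and splicing factors, 3 were higher (8.57%, against 1.4% of all genes) and none lower. The median GC content of this list was 43.0%, against 48.5% for all genes, and genes of low GC content were chosen as higher more often. Among all genes of 42.6% to 46.6% GC content, 1.76% were higher. Clk1, a kinase of splicing factors, was at 158, 149, 150.1 and 179 CPM in RAPA and 97.4 to 140.5 (median 115) in the others. Srsf5, a splicing factor, was at 237, 239, 233 and 260.0 CPM against 167 to 221 (median 191), and Ddx5, an RNA helicase, at 862, 822, 779.8 and 889 against 630.4 to 746 (median 689.8). The summed level of the 35 genes was 6871, 6856, 6870 and 7405 CPM in RAPA and 5704 to 6580 (median 6300) in the others, which did not overlap. The sum includes the 3 chosen genes, so this separation is partly set by the choice, and it was not corrected for GC content. With total counts alone as the scaling 6 of the 35 were higher, where all genes gave 384 of 18255. Clk1 was retained after the trend was removed, and Ddx5 and Srsf5 were not. Under that correction 3 of the 35 were higher, Clk1, Clk2 and Ddx17 (8.57%, against 1.43% of all genes).

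Ribosomal protein genes gave 4 higher of 78 measured (5.13%) and none lower. Rpl17 was at 171, 150.1, 165 and 177 CPM in RAPA and 101 to 148 (median 112) in the others, and Rpl21 at 167, 159, 162 and 171 against 121 to 149 (median 127). Rpl30 was at 54.1, 52.6, 58.8 and 59.5 CPM against 38.3 to 50.4 (median 44.96), and Rpl36a at 43.3, 44.8, 48.0 and 39.8 against 30.8 to 39.7 (median 34.9). The nearest other mouse was a day 13 mouse in all 4. Ribosomal protein genes have many near-identical pseudogenes, so reads may be split among copies and these values are uncertain. With total counts alone as the scaling 9 of the 78 were higher, with thinned counts 6 and with DESeq2 size factors 2. All genes gave 384, 201 and 261 of 18255 in the same order. After the trend was removed 7 were higher (8.97%, against 1.43% of all genes under that correction), among them Rpl17, Rpl21 and Rpl36a, and Rpl30 was not retained. The 78 genes summed to 7886, 7600, 7787 and 7328 CPM in RAPA and 6344 to 9469 (median 6790) in the others, which overlapped.

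The widest gap among named higher genes was that of Zfand4, a zinc finger gene, at 10.4, 10.6, 13.3 and 10.8 CPM in RAPA and 4.06 to 8.59 (median 6.86) in the others. Primpol, a primase and polymerase that restarts stalled DNA replication, was at 5.45, 5.66, 5.26 and 6.05 CPM against 2.59 to 4.33 (median 3.79). Crebrf, a regulator of CREB3 proteins, was at 186, 182, 203 and 212 CPM against 71.9 to 160.5 (median 119.7). In these 3 genes the RAPA mean was 151%, 137% and 127% of the control mean. Pfdn5, a prefoldin subunit that overlaps Myg1 on the same strand, was at 85.5, 75.7, 78.3 and 82.6 CPM against 52.5 to 67.4 (median 57.8), and Cdkl3, a kinase, at 19.1, 17.9, 17.0 and 16.5 against 11.5 to 14.5 (median 12.3). Kansl1l, Zc3h6, Ccdc73 and Tube1 were at 132%, 135%, 150.5% and 140.1% of the mean of the other mice. Cdc73, a subunit of the PAF complex of transcription, was at 108, 116, 111 and 129.7 CPM against 80.3 to 97.9 (median 89.9), and was not retained after the trend was removed. Amy1, an amylase, was at 17.0, 17.1, 19.4 and 17.7 CPM against 6.71 to 14.1 (median 10.2), but it shares its span on the same strand with Rnpc3, which was also higher, and reads of the pair may be mixed.

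Per3, the only higher gene of 24 measured clock genes, was at 139, 114, 117 and 111 CPM in RAPA and 12.5 to 109 (median 71.9) in the others, with 89.2 ± 2.22 CPM in controls and 30.0 ± 20.1 on day 13. With thinned counts no clock gene was higher, while Per3 was retained after the trend was removed. The hour at which mice were taken was not given in the sources used here, so its part was not tested. Nek10, a kinase, was at 17.8, 19.5, 19.1 and 19.4 CPM against 3.00 to 17.3 (median 13.6), Frat1, which binds GSK3, at 17.0, 16.1, 14.6 and 14.8 against 4.89 to 13.3 (median 9.19), and Stk26, a kinase, at 11.9, 11.2, 13.1 and 11.6 against 3.42 to 10.7 (median 7.31). All 4 were lower on day 13 than in controls, and in RAPA above both. Il1r1, the interleukin receptor, was at 24.98, 27.3, 27.6 and 28.2 CPM against 12.9 to 23.0 (median 17.9), and Mttp, a lipid transfer protein, at 20.2, 22.9, 21.4 and 22.6 against 10.3 to 19.4 (median 13.7). Klhl10 and Kcna5, at 4.44, 4.44, 5.13 and 4.51 and 2.01, 2.20, 2.36 and 2.17 CPM in RAPA, are low-level genes.

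The most abundant named higher genes had smaller ratios. Purb, a DNA- and RNA-binding protein, was at 925, 930.4, 960.4 and 898 CPM against 675 to 838 (median 774), Ahi1, a ciliary protein, at 373, 365, 362 and 372 against 186 to 362 (median 311), and Enah, an actin regulator, at 329.7, 335, 324 and 347 against 243 to 324 (median 296). Tcf20 and Lnpep had RAPA means of 115% and 112% of the other mice. Snhg14, a long noncoding RNA that is antisense to Ube3a, was at 771, 774, 836 and 854 CPM against 346 to 768 (median 639.9); because the counting's strand setting was not given, its reads and those of overlapping genes are uncertain. It was the only chosen gene of 20 measured nuclear and neuronal long noncoding RNAs. Snhg14 was not retained after the trend was removed, when Peg13 of that list was higher (5%, against 1.43% of all genes). No gene of that list was higher with total counts alone or with thinned counts. No gene was chosen among 11 mitochondrially encoded genes, 25 genes of the glucocorticoid response, 5 sex-linked genes and 2 of the Cre driver. The 15 listed mitochondrial genes summed to 51950, 46350, 42660 and 59410 CPM in RAPA and 33550 to 54240 (median 41500) in the others. Their most abundant gene was mt-Rnr2, and the median log2 ratio of the 11 measured genes to the other mice was -0.075. For the glucocorticoid response the median log2 ratio was 0.30 to the other mice and 0.60 to controls, while untreated day 13 mice had 0.66 to controls, with the RAPA mean above that of the others for 18 of 25. The list's mean sum was 1727 CPM in RAPA, 1812 on day 13 and 1350.0 in controls. After the trend was removed Arrdc2, Hif3a and Zbtb16 were higher (12%, against 1.43% of all genes). Total counts alone and thinned counts each gave 1 higher gene, where all genes gave 384 and 201 of 18255.

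**Figure D3:**
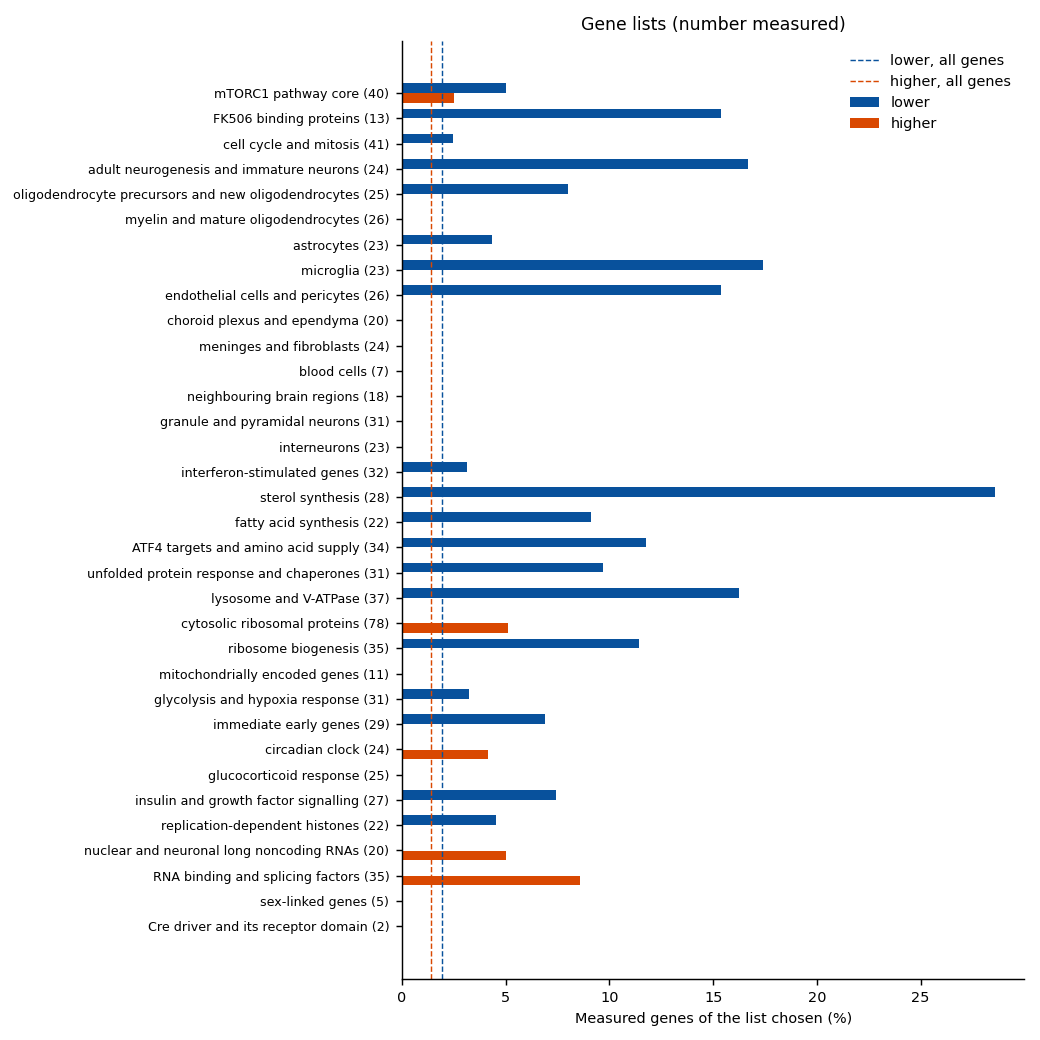
Percent of the measured genes of each of 34 lists that were lower (blue) or higher (orange) in all 4 RAPA mice, with dashed lines at the shares over all genes (1.92% and 1.4%). Sterol synthesis has the longest lower bar (28.6%), and RNA binding and splicing factors the longest higher bar (8.57%).

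The comparison of untreated Cre-positive mice with controls, which contains no RAPA mouse, was read for the chosen genes with edgeR (adjusted p < 0.05 and absolute log2 fold change over 0.5). The mice in it had entered the choice as part of the other 20. A lower gene needs each of them above RAPA and a higher gene each of them below, so genes that moved the opposite way tend to be barred from the lists. The direction, number and p values of these calls are therefore shaped by the choice, and nothing is read from their distance to the shares of all genes. On day 4, 0.422% of 18244 genes rose and 0.4% fell, and none of the 351 lower or 255 higher genes was called by edgeR. At an unadjusted p under 0.05, 51 lower genes were up and 34 down, and 6 higher genes were up and 74 down on that day, beside 2165 up and 1998 down of all 18244 genes. These were 14.5% and 9.69% of the lower genes, 2.35% and 29% of the higher genes, and 11.9% and 11% of all genes. On that day DESeq2 called 1 lower gene, as fallen, and no higher gene. On day 6, 9 lower genes rose (background 0.762%) and 2 higher genes fell (0.625%). On day 8, 45 lower genes rose (2.46%) and 12 higher genes fell (1.97%). On day 13, 116 lower genes rose (9.76%) and 37 higher genes fell (8.67%). On days 6, 8 and 13 edgeR called 0 lower genes as fallen, and DESeq2 called 0, 0 and 1. At an unadjusted edgeR p under 0.05, 23, 6 and 2 lower genes were down. These were 6.55%, 1.71% and 0.57%, against 13.6%, 15.5% and 20.9% of all genes. On the same days 129, 227 and 256 lower genes were up (36.8%, 64.7% and 72.9%, against 16.5%, 19.7% and 26.3%). Of the higher genes, edgeR called 0 as risen on these days, and DESeq2 called 0 on each day. At an unadjusted edgeR p under 0.05, 1, 0 and 1 higher genes were up. These were 0.392%, 0% and 0.392%, against 16.5%, 19.7% and 26.3% of all genes. On the same days 96, 129 and 142 higher genes were down (37.6%, 50.6% and 55.7%, against 13.6%, 15.5% and 20.9%). The 4 comparisons share the control mice.

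The largest rises on day 13 among lower genes were those of Nptx2 (log2 fold change 3.6 ± 0.52 (SE), adjusted p = 0.00168), Hmox1 (log2 fold change 3.00 ± 0.32 (SE), adjusted p = 0.000566), S1pr3 (log2 fold change 2.67 ± 0.77 (SE), adjusted p = 0.0311) and Rgs4 (log2 fold change 1.99 ± 0.23 (SE), adjusted p = 0.000683). Atf4 (log2 fold change 1.96 ± 0.17 (SE), adjusted p = 0.000256) and Slc7a1 (log2 fold change 1.69 ± 0.13 (SE), adjusted p = 0.000158) rose from day 6 on, as did Sqle. The largest falls among higher genes were those of Nek10 (log2 fold change -1.57 ± 0.15 (SE), adjusted p = 0.000382), Per3 (log2 fold change -1.56 ± 0.42 (SE), adjusted p = 0.023), A530058O07Rik (log2 fold change -1.39 ± 0.29 (SE), adjusted p = 0.00788) and AU022754 (log2 fold change -1.38 ± 0.19 (SE), adjusted p = 0.00134). Kdr, Fcrls and Cx3cr1 were not called on any day, and Fkbp1a (log2 fold change 0.48 on day 13, adjusted p = 0.00852) did not pass the fold threshold.

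**Figure D4:**
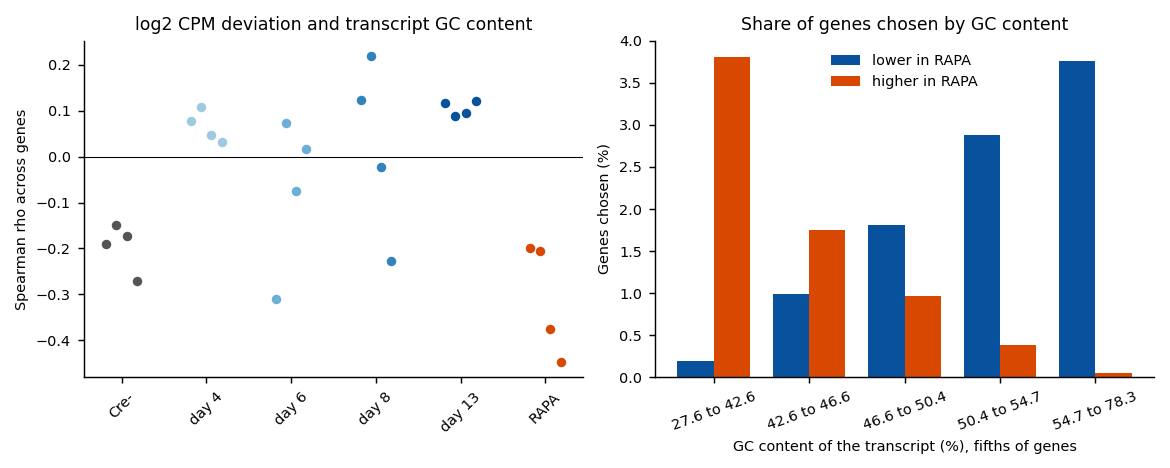
Left, Spearman correlation across 18236 genes of each mouse's log2 CPM deviation (from the mean of the 20 mice without rapamycin) with transcript GC content. Right, percent of genes lower or higher in all 4 RAPA mice, in 5 equal bins of GC content. The RAPA mice lie between -0.447 and -0.2, and the share of lower genes rises from 0.192% in the lowest bin to 3.75% in the highest.

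GC content moves with these genes and bears on both lists. The median GC content of the longest transcript was 53.3% for lower genes, 41.8% for higher genes and 48.5% for all genes. In the RAPA mice, the correlation across genes of the log2 deviation with GC content was -0.2, -0.205, -0.376 and -0.447, a description with no p, since genes are not independent replicates. It was -0.27 to -0.15 in controls, 0.03 to 0.11 on day 4, 0.09 to 0.12 on day 13, and mixed on days 6 and 8 (-0.31 to 0.07 and -0.23 to 0.22). Among genes in the highest of 5 equal bins of GC content, 3.75% were lower and 0.0548% higher. In the lowest bin, 0.192% were lower and 3.81% higher. Transcript length differed less for lower genes, with medians of 3023 bases for lower, 4156 for higher and 3088 for all genes. After each mouse's trend on GC content and length was removed, 177 genes were lower and 260 higher, of which 137 and 146 had been chosen before. These are 39.0% of the lower and 57.3% of the higher genes. The part of library GC bias in the lists was not tested beyond this correction.

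The same rule was applied to each other group. It found 415 lower and 452 higher genes for day 13, 28 and 39 for controls, 31 and 49 for day 4, 5 and 11 for day 6, and 3 and 2 for day 8. After removal of the trend, day 13 had 363 and 531. The part of the cohort in these numbers was not tested.

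**Figure D5:**
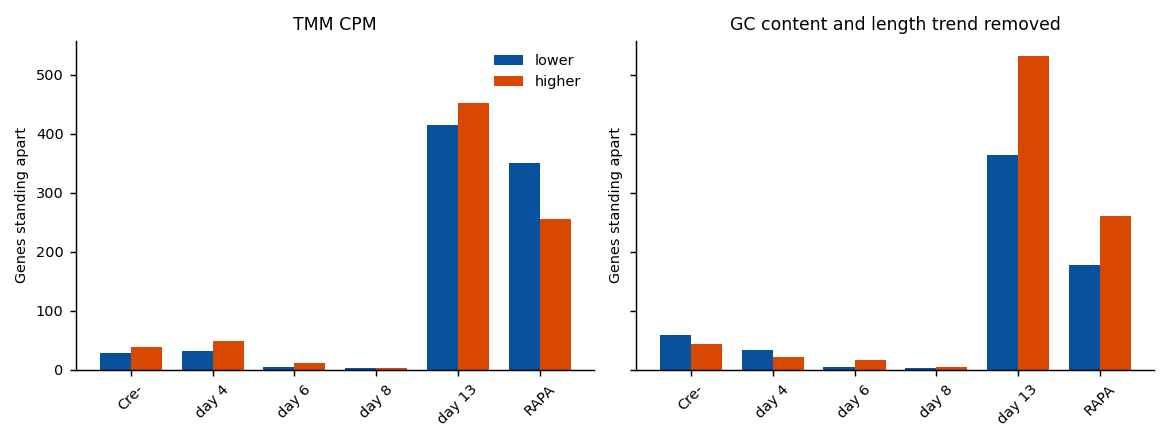
Number of genes lower (blue) or higher (orange) in all 4 mice of each group than in the other 20, for TMM CPM (left) and after removal of each mouse's GC content and length trend (right). RAPA has 351 and 255 genes on the left and 177 and 260 on the right; day 13 has the most in both panels.

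The edges of the rule were close. The lower genes with the smallest gap were Vcp (highest RAPA value 147.8 CPM, lowest other 147.9) and Dhx57 (56.27 and 56.28). Just outside were Fgf21 and Gm11168, which were at 0 CPM in all 4 RAPA mice and in at least 1 other mouse. The higher genes with the smallest gap were Nsmce4a and Tubgcp5, with lowest RAPA and highest other values of 26.2 and 44.4 CPM that agree to 4 digits. Just outside were 2900052L18Rik (4.72 and 4.721 CPM) and Cdc42bpa (598.1 and 598.2). By mean level, Gm34885 was just inside at 1.02 CPM and Rassf10 just outside at 0.985.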

How the data were processed

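The authors trimmed reads with cutadapt 1.16.5, aligned them with STAR 2.7.2b to mouse genome GRCm38 and counted reads per gene with featureCounts 1.6.4, and deposited whole-number counts without normalization (tools and versions per the submitters' processing notes). The files hold 55385 gene identifiers, of which 44657 have a count in any mouse. Names, GC content and length come from GENCODE M21, an earlier release than the study's methods name, which holds 55144 of them and lacks 1 of the chosen genes. The strand setting of the counting was not given in the sources used here, so genes that overlap others are uncertain.

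TMM factors, CPM and the quasi-likelihood test came from edgeR 4.0.16 in R 4.3.3, with filterByExpr, Benjamini-Hochberg adjustment over all genes tested, and 8 mice per comparison; DESeq2 1.42.0 was an alternative. Log ratios add 0.5 CPM. Named genes are, for each direction, the 12 protein-coding genes with the widest gap, the 12 with the largest ratio, the 6 most abundant, members of the 34 lists, genes at the edges of the rule, 9 genes followed in every group, and the 4 largest rises and falls on day 13; some of these are not reported here. Alternatives were other scalings, filters and fits, thinned counts, removal of a GC content and length trend per mouse, and leaving out each mouse. The genes and lists were chosen with earlier results of these data known.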

Additional observations from a re-analysis of the deposited data

Results flagged for a closer look

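Single mice that stood far from the other 3 of their group were looked for in 32 genes, 11 lower and 12 higher among those with the widest gap and 9 genes followed in every group, over the 6 groups. This gave 26 of 192 gene and group pairs. Chance alone gives about 1 in 20 groups where values follow a single normal distribution, which those of Xist below do not. Values are CPM, with the range of the other 3 mice of the group. No explanation was tested.

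Kdr was 42.2 in day 13 mouse B against 30.9 to 32.7. Flna was 168 in control mouse D against 179 to 181, and 286 in day 8 mouse C against 222 to 227. Dhcr7 was 15.6 in day 4 mouse C against 18.2 to 18.4, and 16.2 in day 13 mouse B against 27.2 to 28.8. Lrrc42 was 13.6 in day 4 mouse D against 11.7 to 11.8. Top2a was 11.5 in day 13 mouse B against 3.37 to 4.74. Zfand4 was 8.22 in control mouse D against 7.16 to 7.34, and 6.81 in day 4 mouse B against 7.88 to 8.09, and 13.3 in RAPA mouse C against 10.4 to 10.8. Amy1 was 14.1 in day 4 mouse C against 10.9 to 11.5. Ccdc73 was 14.7 in day 4 mouse C against 15.2 to 15.2. Cdkl3 was 12.8 in control mouse B against 14.3 to 14.5. Pfdn5 was 59.4 in day 6 mouse C against 55.9 to 56.4. Zc3h6 was 35.8 in control mouse A against 32.9 to 33.4. Kansl1l was 42.0 in day 4 mouse D against 45.6 to 46.0. Frat1 was 6.35 in day 8 mouse B against 7.80 to 8.08. Rps6kb1 was 78.3 in control mouse C against 79.8 to 80.1. Fkbp1a was 180.2 in day 13 mouse B against 224 to 229.8, and 114 in RAPA mouse C against 135 to 138. Ttr was 1511 in control mouse B against 18.6 to 40.1, and 581 in day 8 mouse D against 6.49 to 19.3, and 462 in RAPA mouse C against 5.69 to 48.4. Xist was 952 in day 4 mouse D against 1.72 to 3.11, and 899.9 in day 6 mouse A against 2.13 to 2.86, and 3.18 in day 8 mouse D against 724 to 838.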

How the results depend on the processing

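With DESeq2 size factors, a minimum of 5 CPM, no minimum, or counts thinned to the smallest library, the numbers of lower and higher genes stayed within 1.5 times 351 and 255. Fewer of the same genes were chosen: thinning kept 204 lower (58.1%) and 140 higher (54.9%), DESeq2 size factors 320 and 241, and total counts alone 193 and 227. Total counts alone as the scaling gave 219 lower and 384 higher genes, removal of the GC content and length trend gave 177 lower genes, and day 13 mice alone as the other mice gave 3704 and 3231, where fewer mice have to be passed. Leaving out each mouse gave 352 to 597 lower and 255 to 424 higher genes. Without RAPA B 597 were lower and 383 higher, and without RAPA A or C 424 and 411 were higher. All 351 and 255 genes were chosen again each time, since leaving out a mouse only loosens the rule. These numbers therefore cannot show whether the lists are stable. For the total counts and the trend, the cause was not tested.

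For calls against control, no fold minimum gave 17 lower and 19 higher genes on day 4, 96 and 45 on day 6, 161 and 62 on day 8, and 210 and 100 on day 13, since it accepts smaller changes. Of the lower genes 11, 86, 156 and 210 were up, and of the higher genes 18, 45, 62 and 100 were down. Among all genes tested, 660 of 25308 were up and 394 down on day 4, and 1564 and 955 of 25057 on day 6. The numbers were 2110 and 1221 of 25085 on day 8 and 3879 and 2817 of 24920 on day 13. On day 4, DESeq2 and the fit without a filter on low counts each called 1 lower gene, as fallen. The genes called on day 4 in the fits below that leave out a mouse had also fallen. The fit on all 24 mice called 0 higher genes on day 6, and the GC content and length offset 7 on day 8; the cause was not tested. Leaving out each mouse gave, for lower and higher genes, 0 to 2 and 0 to 1 on day 4 (lower: 1 without control A or D and 2 without day 4 D; higher: 1 without control D or day 4 A), 8 to 10 and 2 to 4 on day 6 (4 without day 6 A), 36 to 60 and 8 to 22 on day 8 (22 without day 8 D), and 93 to 133 and 23 to 47 on day 13 (23 without control D).

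On days 4, 6, 8 and 13, each mouse's deviation was compared with that of the control of the same letter. The correlations across genes ran from -0.206 to 0.211, and all were positive on days 4 and 13. Mice of different letters were not compared, so whether the letters pair the mice cannot be decided from these values. RAPA mice were not examined in this way. A fit with the letter as a replicate block gave 1 lower and 0 higher genes for day 4, 8 and 2 for day 6, 43 and 13 for day 8, and 109 and 34 for day 13. The day 4 gene had fallen.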
